A study of Zea mays with 15 samples.

Results

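GIF1 (GRMZM2G180246) and GIF2 (GRMZM2G154169) are the maize GRF-interacting factors described here, 2 of the 39145 genes in the deposited table. Both were chosen by name and because earlier results of these data showed their levels moving in opposite directions along the leaf, so their zone courses are given as descriptions without a test. GRF-interacting factors are coactivators without a DNA-binding domain of their own. Their SNH domain binds the QLQ domain of growth-regulating factors (GRFs), a plant family of transcription factors, and they link these to SWI/SNF-type chromatin remodelling complexes. GRFs are repressed by the microRNA miR396, and the GIF-GRF modules are known for promoting cell proliferation in young leaves. Maize plants that lack GIF1 are short and have narrow leaves.

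The tissue was the growth zone of leaf 4 of B73, an inbred line of maize, taken 3 days after the leaf emerged. Plants grew outdoors under plastic sheets that let pass either little solar UV-B (control, 0.35 W/m2 at noon) or most of it (UV-B, 1.5 W/m2), with UV-A at 8 W/m2 under both. The basal part of the leaf was cut into segments of 10 mm, and zone 1 lay at 0 to 1 cm, zone 2 at 1 to 2 cm and zone 3 at 2 to 3 cm from the leaf base. Each RNA sample was a bulk segment, so fewer cells of a type and less RNA per cell cannot be told apart. All plants were of this 1 genotype, and the labels do not say how many plants gave a sample.

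Of 15 libraries, UV-B zone 3 replicate 1 held 728 reads and was left out. The other 14 had 1673416 to 19221143 reads assigned to genes, with zone 3 the shallowest. The control group kept 3 libraries of zone 1, 2 of zone 2 and 3 of zone 3, and the UV-B group kept 1, 3 and 2. Levels are given in CPM, the reads of a gene for every 1000000 reads assigned to genes in the library. Markers of dividing and of photosynthetic cells followed the segments. The summed level of 7 genes of dividing cells was 1083 to 1312 CPM in control zone 1 and 104 to 201 CPM in control zone 3. That of 9 genes of photosynthetic cells was 98.9 to 350.1 CPM and 2325 to 6279 CPM. Not every marker set did so: the sum of 2 epidermis genes overlapped, at 125.9 to 204.6 and 120.5 to 161.4 CPM.

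GIF1 was a gene of the leaf base. In control zone 1 it reached 68.3, 92.8 and 62.0 CPM in the 3 libraries, a mean of 74.4 CPM (SD 16.3, n = 3). The 2 libraries of control zone 2 held 9.63 and 5.87 CPM, with a mean of 7.75 (SD 2.66, n = 2). Control zone 3 held 0.498, 0.779 and 0.643 CPM (mean 0.640, SD 0.140, n = 3), which were 1, 4 and 4 reads. The 3 zones did not overlap, and the mean was 9.60-fold lower in zone 2 than in zone 1 and a further 12.1-fold lower in zone 3. From zone 1 to zone 3 the means differed 116-fold.

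The same course was seen under UV-B. The single UV-B zone 1 library held 83.2 CPM of GIF1, and the zone 2 libraries held 6.97, 6.48 and 5.32 CPM (mean 6.26, SD 0.846, n = 3). Neither of the UV-B zone 3 libraries had a GIF1 read. A count of 0 allows up to 0.643 CPM in replicate 2 and 1.79 CPM in replicate 3, and up to 0.473 CPM over both together, taking 3 reads as the floor. Against that floor over both libraries, GIF1 was at least 13.2-fold lower in UV-B zone 3 than in zone 2 and at least 176-fold lower than in zone 1. These limits cover counting error only.

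GIF2 ran the other way and over a much narrower range. Its levels were 46.7, 52.7 and 36.4 CPM in control zone 1 (mean 45.3, SD 8.21, n = 3). In control zone 2 they were 70.3 and 39.5 CPM (mean 54.9, SD 21.7, n = 2), and in control zone 3 they were 92.1, 76.9 and 70.6 CPM (mean 79.9, SD 11.1, n = 3). Zones 1 and 3 did not overlap, while the 2 libraries of zone 2 spread from within zone 1 to just below zone 3. The mean was 1.76-fold higher in zone 3 than in zone 1.

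Under UV-B, GIF2 stood at 50.5 CPM in the zone 1 library. The zone 2 libraries held 76.7, 54.8 and 62.8 CPM (mean 64.7, SD 11.1, n = 3) and the zone 3 libraries 64.5 and 97.4 CPM (mean 81.0, SD 23.3, n = 2). UV-B zones 2 and 3 overlapped, the zone 1 library lay below all of their libraries, and the zone 3 mean was 1.60-fold higher than that library.

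Ordered by mean CPM, the GIF1 groups were UV-B zone 1, control zone 1, control zone 2, UV-B zone 2, control zone 3 and UV-B zone 3. In each zone the treatments were neighbours in this order, and their ranges overlapped in zones 1 and 2. In zone 3 the 0 reads under UV-B stood beside 1 to 4 reads in the controls. For GIF2 the order was UV-B zone 3, control zone 3, UV-B zone 2, control zone 2, UV-B zone 1 and control zone 1, and all neighbours with 2 or more libraries overlapped. The single UV-B zone 1 value of GIF2 lay inside the ranges of both its neighbours.

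**Figure D1:**
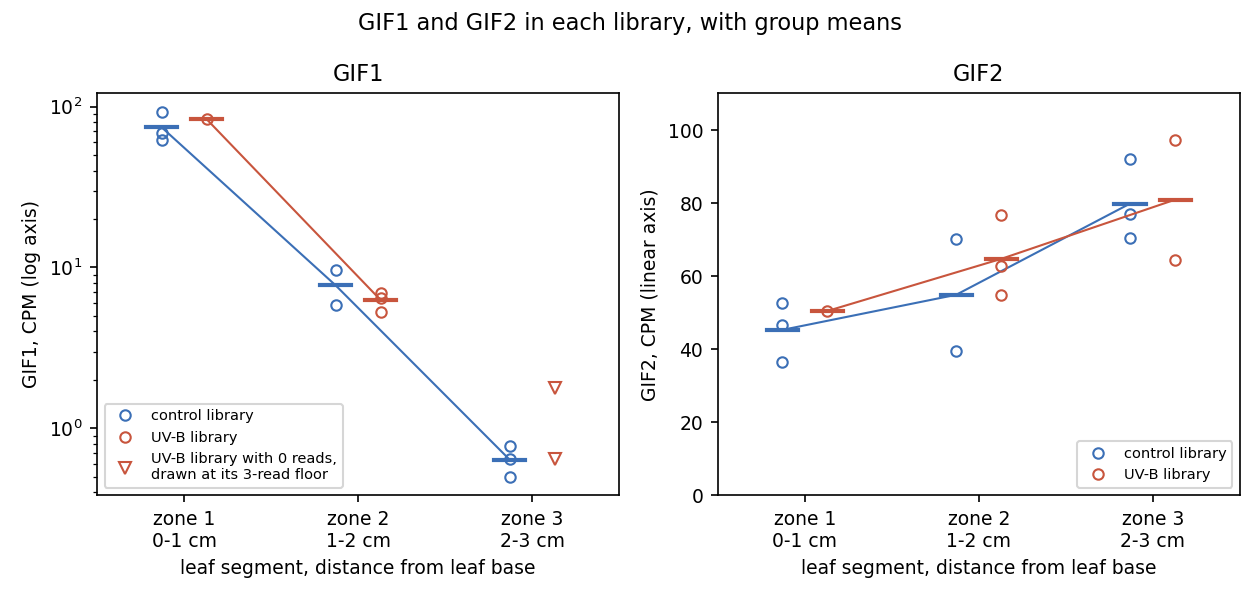
CPM of GIF1 (left, log axis) and GIF2 (right, linear axis) in each library by leaf segment, with circles for libraries, short bars for group means and lines joining them. Triangles stand for the 2 UV-B zone 3 libraries with 0 GIF1 reads, drawn at their floors of 0.643 and 1.79 CPM. GIF1 drops from 62.0 to 92.8 CPM in control zone 1 to 0.779 CPM or less in control zone 3, while GIF2 lies between 36.4 and 97.4 CPM throughout.

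In the edgeR fit over all genes, the log2 change from control zone 1 to zone 3 was -6.67 ± 0.37 (SE) for GIF1 and 0.90 ± 0.25 for GIF2. Of the 23899 genes tested, 0.515% had a lower value than GIF1, and 26.9% had a higher value than GIF2. From control zone 1 to zone 2 the log2 change was -3.21 ± 0.32 for GIF1 and 0.35 ± 0.28 for GIF2. From zone 2 to zone 3 it was -3.46 ± 0.41 and 0.55 ± 0.28. Without control zone 2 replicate 2, the higher of that group, the change of GIF2 from zone 1 to zone 2 was -0.16 ± 0.30. GIF1 lost about the same amount on the log2 scale in each centimetre.

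Each gene had 2 transcripts in the table. GIF1 lies on chromosome 1, where transcript T01 (1363 bases, 4 exons) spans 273393235 to 273396891 and T02 (1387 bases, 3 exons) spans 273393303 to 273396855. GIF2 lies on chromosome 4, with T01 (2177 bases, 4 exons) from 5380347 to 5385430 and T02 (1445 bases, 3 exons) from 5380355 to 5384364. The build of these coordinates is not given in the sources used here. T01 carried 98.1% ± 0.588 (SD, n = 3) of the GIF1 reads in control zone 1 and 97.5% in the UV-B zone 1 library. In zone 2 this share was lower, at 93.2% and 58.7% in the control libraries and 80.3%, 94.4% and 90.6% under UV-B, and in zone 3 GIF1 had too few reads for a share. The 58.7% came from 46 reads, with 19 given to T02, and 18 of those 19 belonged to more than 1 transcript. The split thus rests largely on how such reads were assigned. T01 also carried most GIF2 reads, 84.9% ± 6.19 (n = 3) in control zone 1 and 85.4% ± 10.04 (n = 3) in control zone 3, so between these zones its share did not move beyond the spread. In the UV-B zone 3 libraries it was 60.1% and 92.0%. In the control zone 3 libraries 0, 0 and 4 reads belonged to T02 of GIF2 alone. The GIF2 split therefore also rests largely on how reads of more than 1 transcript were assigned.

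The higher GIF2 level in zone 3 was in reads shared by transcripts. A read is unique in the table when it belongs to 1 transcript only, and shared reads may belong to both GIF2 transcripts or to those of another gene, which the table does not separate. Shared GIF2 reads made up 19.7, 22.4 and 13.9 CPM in the control zone 1 libraries and 57.3, 41.7 and 44.8 in those of control zone 3. The zones did not overlap, and the means of 18.7 (SD 4.34, n = 3) and 47.9 (SD 8.25, n = 3) differed 2.56-fold. Unique GIF2 reads were 27.0, 30.2 and 22.5 CPM in control zone 1 and 34.9, 35.2 and 25.7 in control zone 3. These ranges overlapped, and the means of 26.6 (SD 3.89, n = 3) and 31.9 (SD 5.40, n = 3) differed 1.20-fold.

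Under UV-B the shared reads of GIF2 went from 19.9 CPM in the zone 1 library to a mean of 48.4 (SD 14.4, n = 2) in zone 3, and the unique reads stood at 30.6 and 32.6 (SD 8.82, n = 2). The unique share of GIF2 reads was 59.0% ± 2.40 (SD, n = 3) in control zone 1, 54.0% ± 4.72 (n = 2) in zone 2 and 40.0% ± 5.06 (n = 3) in zone 3. It was 60.6% in the UV-B zone 1 library, 56.0% ± 2.78 (n = 3) in zone 2 and 40.4% ± 0.698 (n = 2) in zone 3. Such shifts were common: among 3068 genes with at least 20 reads in each control library of zones 1 and 3 and a unique share of 10% to 90%, 36.8% had a change at least as large as the 18.9 percentage points of GIF2. Fitted on unique reads alone, the log2 change of GIF2 from control zone 1 to zone 3 was 0.19 ± 0.29 (SE). The median log2 change of all genes tested was -0.32 in that fit and -0.02 with total reads.

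GIF1 kept its course in both kinds of reads. Its shared reads fell from 68.2 CPM (SD 14.8, n = 3) in control zone 1 to 0.586 (SD 0.167, n = 3) in zone 3, and its unique reads from 6.22 (SD 1.57, n = 3) to 0.0536 (SD 0.0928, n = 3), the latter being 1 read in all. Unique reads were 7.85% of all GIF1 reads, against a median of 24.0% over 5600 genes with 2 annotated transcripts.

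**Figure D2:**
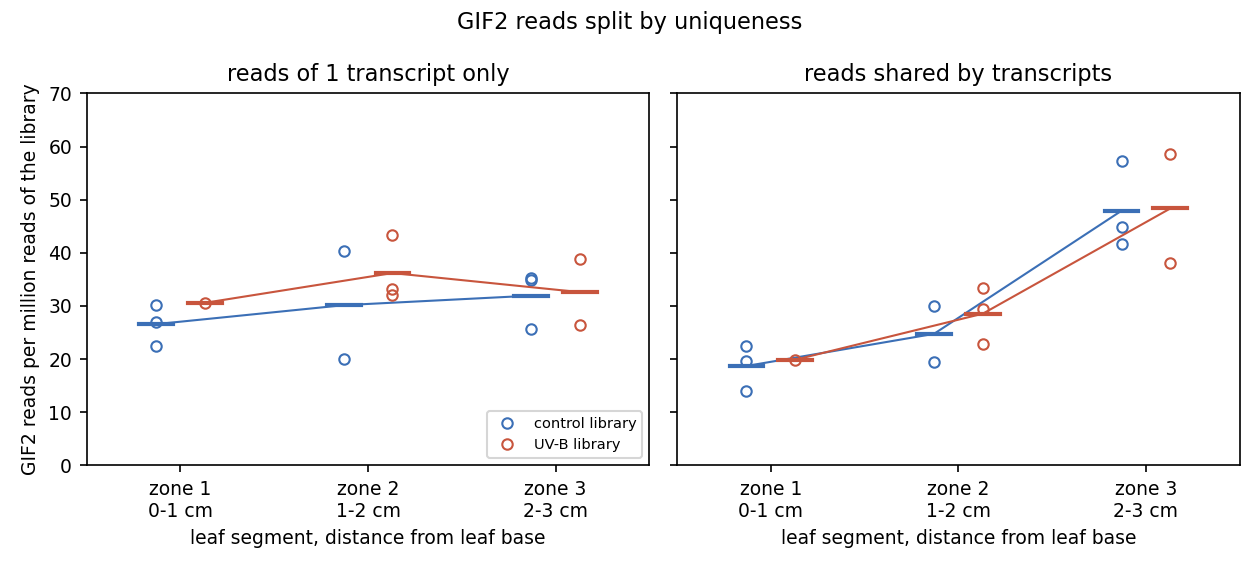
GIF2 reads for every 1000000 reads of the library (CPM) by leaf segment, split into reads that belong to 1 transcript only (left) and reads shared by transcripts (right), with circles for libraries, short bars for group means and lines joining them. The unique reads of control zones 1 and 3 overlap, from 22.5 to 35.2, while the shared reads lie between 13.9 and 22.4 in control zone 1 and between 41.7 and 57.3 in control zone 3.

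Per length, the balance of the 2 coactivators turned over within the basal 3 cm. The deposited RPKM (reads for every kilobase of transcript and 1000000 reads), summed over the transcripts of a gene, were 51.8 ± 11.9 (SD, n = 3) for GIF1 and 11.6 ± 2.03 for GIF2 in control zone 1. In control zone 2 they were 5.42 ± 1.99 and 14.2 ± 3.98 (n = 2), and in control zone 3 they were 0.432 ± 0.110 and 24.0 ± 4.29 (n = 3). GIF1 therefore made up 79.0% to 83.6% of the RPKM of both genes in the control zone 1 libraries, 26.0% to 28.6% in zone 2 and 1.11% to 2.59% in zone 3. Under UV-B this share was 81.4% in the zone 1 library, 17.7% to 27.0% in the zone 2 libraries and 0 in those of zone 3.

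The deposited RPKM of GIF2 stand for fewer reads than the total counts. For transcript T01 of GIF2 they held 42.3% of the total reads in control zone 1 and 57.1% in control zone 3 on average, while the other 3 transcripts of GIF1 and GIF2 matched in full. In the whole table, 5982 of 54991 transcripts with reads (10.9%) differed in this way in at least 80% of their libraries by more than 1%. With RPKM computed from all total reads, GIF1 made up 70.8% ± 2.45 (SD, n = 3) of both genes in control zone 1, 17.6% ± 0.807 (n = 2) in zone 2 and 1.21% ± 0.414 (n = 3) in zone 3. In each zone the order of the genes was the same on both scales.

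The GRFs, the partners of both coactivators, also stood highest at the leaf base. The 16 measured GRFs summed to 259.5 RPKM (SD 43.6, n = 3) in control zone 1, 135.3 (SD 32.9, n = 2) in zone 2 and 69.6 (SD 2.39, n = 3) in zone 3. GIF1 and GIF2 together stood at 24.4% ± 2.63 (SD, n = 3) of that sum in control zone 1, 14.4% ± 0.913 (n = 2) in zone 2 and 35.0% ± 4.88 (n = 3) in zone 3. Libraries of these 3 zones did not overlap, and zone 2 was the lowest. Under UV-B the shares were 23.7% in the zone 1 library, 12.0% to 19.3% in zone 2 and 29.0% and 51.5% in zone 3. With all total reads the control shares were 28.0%, 22.4% and 52.8%, and the libraries of zones 1 and 2 then overlapped. Under UV-B they were then 27.3% in the zone 1 library, 21.0% to 34.6% in zone 2 and 41.8% and 75.0% in zone 3. The minimum in zone 2 without overlap thus holds for the deposited RPKM only.

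**Figure D3:**
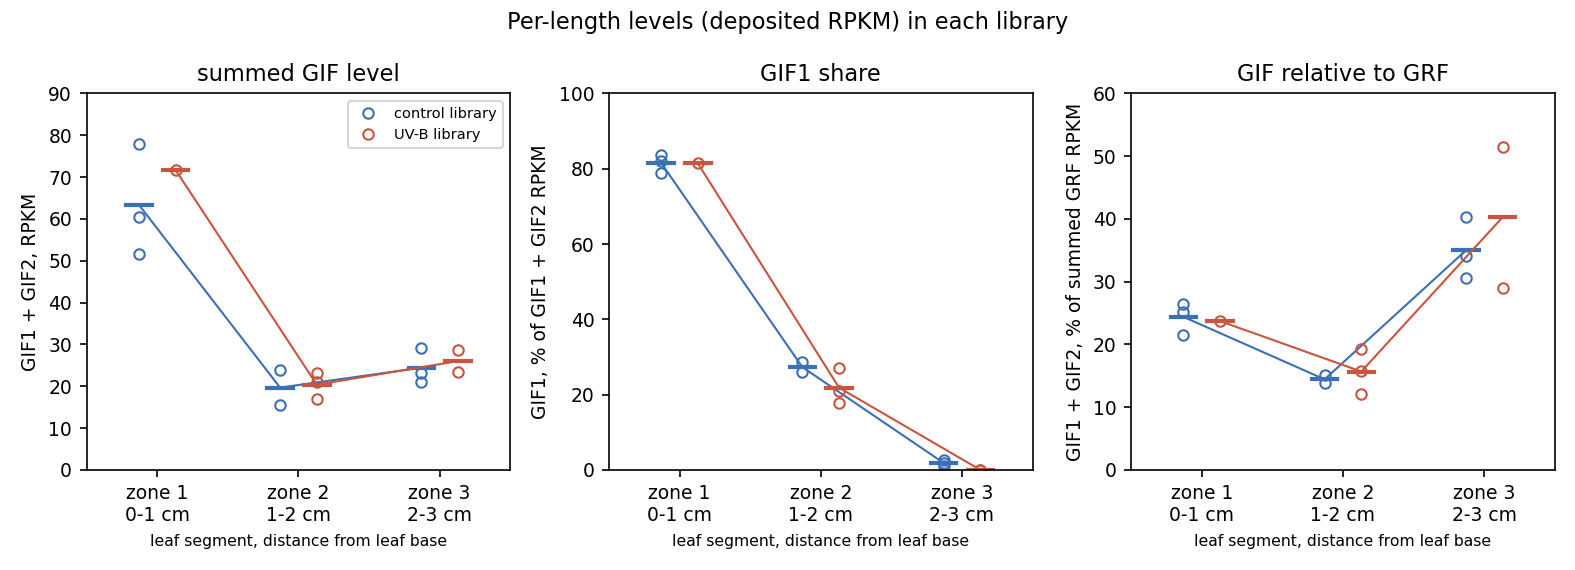
Summed RPKM of GIF1 and GIF2 (left), the share of GIF1 in that sum (middle) and the sum as a percentage of the summed RPKM of 16 GRFs (right), by leaf segment, with circles for libraries, short bars for group means and lines joining them. The GIF1 share goes from 79.0% or more in control zone 1 to 2.59% or less in control zone 3. On the deposited RPKM drawn here the sum relative to the GRFs is lowest in zone 2, while with all total reads zones 1 and 2 overlap.

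Among the 16 GRFs, 14 fell from control zone 1 to zone 3 and none rose (edgeR, adjusted p under 0.05), where 25.7% of all genes tested fell, 25.6% rose and 51.3% changed in either direction. The median log2 change of the GRFs was -2.49, and that of all genes tested was -0.02. With unique reads, 9 GRFs fell, where 5648 of 21459 genes tested fell. GRF12 went from 51.6 CPM (SD 16.6, n = 3) to 8.35 (SD 2.40, n = 3), a log2 change of -2.58 ± 0.28 (SE). GRF13 went from 33.1 CPM (SD 11.5, n = 3) to 4.25 (SD 0.748, n = 3). GRF2 went from 48.8 (SD 8.71) to 8.03 (SD 0.510), and GRF14 from 23.4 (SD 3.52) to 3.49 (SD 1.74). These 4 had the smallest adjusted p-values, 1.81e-05 to 6.25e-05 by edgeR.

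GRF12, GRF13 and GRF14 had most of their fall between zones 1 and 2. In control zone 2, GRF12 already stood at 10.4 CPM (SD 1.95, n = 2), GRF13 at 6.11 (SD 0.340) and GRF14 at 3.85 (SD 0.751), with log2 changes against zone 1 of -2.24 ± 0.31, -2.37 ± 0.37 and -2.55 ± 0.39 (SE). Their log2 changes from zone 2 to zone 3 were -0.34 ± 0.31, -0.46 ± 0.37 and -0.22 ± 0.40 and did not pass the test (edgeR adjusted p = 0.480, 0.421 and 0.744). GRF2 changed in both steps, by -1.33 ± 0.34 (adjusted p = 0.0317) and -1.18 ± 0.35 (adjusted p = 0.0417). These zone tests treated libraries as independent, though those of 1 treatment with the same title number tended to deviate together. For control zone 3 against zone 2, limma-voom called 2594 genes, and 6235 with a correlation within such sets. A fall that did not pass here is therefore not shown to be absent. Of all 16 GRFs, 8 fell from zone 1 to zone 2, where 1.69% of all genes tested fell, and 3 fell from zone 2 to zone 3, where 7.46% did. In UV-B plants 3 GRFs fell from zone 2 to zone 3, where 3.5% of all genes tested fell. These calls need the fit over all groups: with the 2 compared groups alone, 0 of 21218 genes tested were called.

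GRF4 and GRF10, named after their values were seen, were the 2 GRFs that did not pass the test between control zones 1 and 3. That test too treated the libraries as independent. GRF4 stood at 20.8 CPM (SD 1.81, n = 3) in zone 1, 20.9 (SD 1.07, n = 2) in zone 2 and 22.0 (SD 2.38, n = 3) in zone 3, a log2 change of 0.17 ± 0.20 from zone 1 to zone 3 (edgeR adjusted p = 0.495). GRF10 had 35.3 (SD 5.12), 40.8 (SD 10.1) and 25.6 CPM (SD 2.97), a log2 change of -0.36 ± 0.20 (adjusted p = 0.153). At the other end, GRF7 had 2.11 CPM (SD 1.06, n = 3) in control zone 1 and no read in zones 2 and 3 of either treatment, and was at least 9.38-fold lower in control zone 3.

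**Figure D4:**
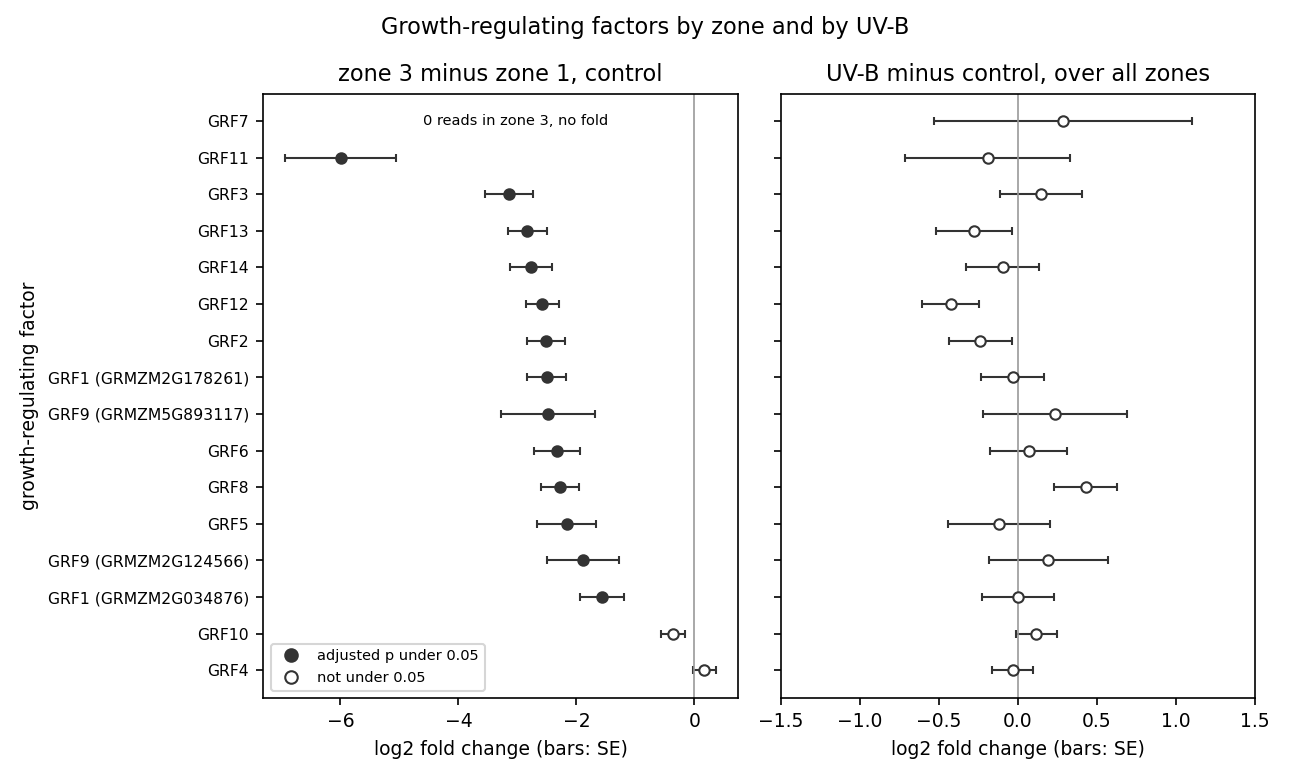
Log2 fold changes of the 16 GRFs from control zone 1 to zone 3 (left) and of UV-B against control over all zones (right), with bars of 1 SE and filled circles where the edgeR adjusted p is under 0.05. GRF7 has no read in control zone 3 and no fold is drawn there. On the left all drawn GRFs lie below 0 with a call, other than GRF10 and GRF4, which do not pass, and on the right none passes.

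SWI/SNF-type chromatin remodelling complexes are brought to GRFs by GIF proteins. Of 10 listed gene IDs, matched by name, 9 could be tested. A match by name, as for chr111, chr122 and chr124, does not show that the gene codes for a subunit of these complexes. From control zone 1 to zone 3, 6 fell and none rose, where 25.7% of all genes tested fell and 51.3% changed in either direction. The names chr122 and chr124 each cover several of these IDs, so the 6 and the 9 count IDs and not separate subunits. The median log2 change of the 9 was -1.32. One record named chr122 (GRMZM2G097289) went from 84.5 CPM (SD 10.3, n = 3) to 32.0 (SD 1.63, n = 3), and SWI3C1 from 28.0 (SD 2.34) to 10.2 (SD 1.16). ATSWI3B, named for a scaffold subunit of these complexes in Arabidopsis, went from 34.1 (SD 0.642) to 20.8 CPM (SD 1.07). Their log2 changes were -1.32 ± 0.18, -1.37 ± 0.20 and -0.62 ± 0.18 (SE; edgeR adjusted p = 0.000104, 0.000145 and 0.0127). The 3 that did not pass, named after their values were seen, were CHC2 and the chr124 records GRMZM2G049766 and GRMZM2G130739. CHC2 stood at 217.9 CPM (SD 11.1, n = 3) in control zone 1 and 214.4 (SD 17.6, n = 3) in zone 3, a log2 change of 0.06 ± 0.19 (adjusted p = 0.802). The log2 changes of the chr124 records were -0.09 ± 0.28 and -2.29 ± 1.39 (adjusted p = 0.811 and 0.189).

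The named genes whose log2 levels followed GIF1 most closely over the 14 libraries were DP2, the dimerization partner of E2F factors in the cell cycle, with a Pearson r of 0.981, then ARF23, an auxin response factor (0.981), yab10, a YABBY transcription factor (0.976), TERT, the telomerase reverse transcriptase (0.975), and nfc102 (0.970). They ranked between 7 and 48 among 18414 expressed genes by likeness. DP2 is also 1 of the 7 markers of dividing cells. TERT fell with GIF1 from 17.1 CPM in control zone 1 to 3.02 in zone 2 and 0.575 in zone 3. Most points differ by zone, so a gene with a zone course of similar shape and direction gives a high r. Among the GRFs the r with GIF1 was highest for GRF3 (0.960) and GRF2 (0.949), and 0.152 for GRF4.

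For GIF2 the most alike named genes were MYBR64, a MYB-related transcription factor (0.969), SUMO1b, a small ubiquitin-like modifier (0.961), MBF1.3, a multiprotein bridging factor that acts as a transcriptional coactivator (0.959), elongin (0.957) and nad2 (0.954). MYBR64 stood at 9.94, 13.3 and 23.7 CPM in control zones 1, 2 and 3. The r of GIF2 with the 14 GRFs that reached 5 CPM in a group ran from -0.799 to -0.191. The r between GIF1 and GIF2 was -0.731.

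UV-B exposure, the treatment of the study, was not used to choose the 2 genes. Neither GIF1 nor GIF2 passed the test for UV-B over all zones, in any zone, or for a difference of the UV-B effect between zones 3 and 2. Over all zones, 7 of 23899 genes were called (0.0293%). There GIF2 had a log2 change of 0.08 ± 0.16 (SE; edgeR adjusted p = 0.896), with a 95% interval of -0.24 to 0.40. GIF1 had a log2 change of -0.26 (adjusted p = 0.980). For GIF1 edgeR replaced the quasi-likelihood p by the larger one of a Poisson model, so no SE is given, and without that bound the adjusted p was 0.769. None of the 16 GRFs and none of the 9 chromatin remodelling gene IDs passed the test for UV-B over all zones, with median log2 changes of -0.01 and -0.19, against -0.01 for all genes tested. This fit treats the 14 libraries as independent. Libraries of 1 collection (same treatment and title number) had a correlation of 0.472 by limma-voom, so its SE and intervals may be too narrow. For UV-B over all zones limma-voom called 4 genes, and 1 gene with that correlation.

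In zone 1 the UV-B library was inside the range of the 3 control libraries for both genes. The log2 changes were 0.06 ± 0.34 (SE) for GIF1 and 0.06 ± 0.35 for GIF2 (edgeR adjusted p = 1 for both), and 1 gene in the whole table was called (0.00418%). UV-B zone 1 has 1 library, whose spread is assumed to be that of the other groups. That library also held 50 reads (2.60 CPM) of kn1, a homeobox gene that marks the shoot meristem, against 0 reads in the 3 control zone 1 libraries together. The part of such tissue in the result was not tested.

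In zone 2 the levels of both genes overlapped between treatments. The log2 change under UV-B was -0.29 ± 0.30 (SE) for GIF1 and 0.23 ± 0.28 for GIF2 (edgeR adjusted p = 0.924 and 0.929), and no gene in the table was called (0.0%) while 939 had an unadjusted p under 0.05. With DESeq2 2 genes were called there, and with limma-voom 1 gene.

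In zone 3, GIF2 had a log2 change under UV-B of -0.06 ± 0.28 (SE; edgeR adjusted p = 1), where 0.00418% of genes were called, with a 95% interval of -0.61 to 0.50. GIF1 had 9 reads among 13364739 in the control libraries and 0 among 6338728 in the UV-B libraries. Pooled over libraries, that is 0.673 CPM with an exact Poisson interval of 0.308 to 1.28 in the controls, and 0 CPM under UV-B, where 0 reads allow up to 0.473 CPM over both libraries. That limit lies inside the interval of the controls, and no fold is given. A difference was not detectable at this depth over all genes (edgeR adjusted p = 1, and 0.00792 before adjustment). The UV-B effect in zone 3 minus that in zone 2 was -0.29 ± 0.40 (SE) for GIF2 (adjusted p = 1.000). For GIF1 it is not given as a fold (edgeR adjusted p = 1.000), and no gene was called for this difference (0.0%) while 454 had an unadjusted p under 0.05. Neither DESeq2 nor limma-voom called a gene for it.

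The log2 ratio of GIF1 to GIF2, each with 0.5 CPM added, sets the 2 genes against each other within a library. In zone 1 it was 0.54, 0.81 and 0.76 in the controls and 0.72 under UV-B. In zone 2 it was -2.80 and -2.65 in the controls and -3.37, -2.99 and -3.44 under UV-B. In zone 3 it was -6.54, -5.92 and -5.96 in the controls and -7.02 and -7.61 under UV-B, where 0 GIF1 reads leave the 0.5 CPM to set the value. The UV-B libraries were lower without overlap in zone 2 and lay among the controls in zone 1. In zone 3 the order cannot be read: with GIF1 at its floor of 3 reads, the UV-B values were -5.83 and -5.42, both above the controls.

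Summed over the zones, the difference of the mean log2 ratios was -1.71, made up of 0.01 in zone 1, -0.54 in zone 2 and -1.18 in zone 3. A two-sided exact permutation test that exchanged libraries within zones gave p = 0.015, and this value rests on the 0.5 CPM in zone 3. With GIF1 at the floor in the libraries without a read, the sum was -0.01 (exact permutation p = 0.978), and over zones 1 and 2 alone it was -0.53 (exact permutation p = 0.15). With 0.1 CPM added in place of 0.5 the sum was -3.41 (exact permutation p = 0.0075), and with 1 CPM it was -1.22 (exact permutation p = 0.02). No difference of the ratio under UV-B is called from these values. Libraries with the same title number within a treatment tended to deviate together, and exchanging the 6 such sets whole gave an exact permutation p of 0.1, the smallest that this design allows. With unique reads the difference was -1.12 (exact permutation p = 0.085).

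**Figure D5:**
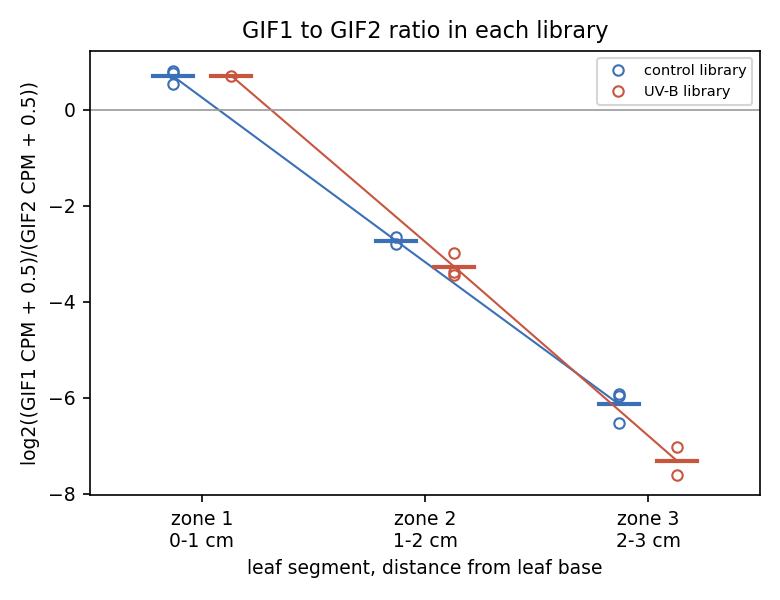
Log2 ratio of GIF1 to GIF2, each with 0.5 CPM added, in each library by leaf segment, with circles for libraries, short bars for group means and lines joining them. Control and UV-B libraries lie together in zone 1, from 0.54 to 0.81. The UV-B libraries lie below the controls in zone 2, where too few libraries remain for a test of that zone alone. The height of the UV-B points in zone 3 is set by the added 0.5 CPM, since both libraries have 0 GIF1 reads.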

How the data were processed

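The authors deposited 1 table for 15 stranded, poly-A selected mRNA libraries, with counts of total and unique reads and RPKM values per transcript, per the file headers. The aligner is not given in the sources used here, nor is the genome build, and 21 value columns of 3 libraries that match no label were not used. Total counts of 62892 transcripts were summed to 39145 genes, and 18842 of these matched RefSeq records of assembly Zm-B73-REFERENCE-NAM-5.0, from which only names were taken. The members and gene lists were chosen with earlier results of these data known. Lists came from RefSeq symbols and synonyms: GRFs, genes with names of chromatin remodelling subunits, and cell type markers. A gene among the cell type markers is left out of the text. The GRF list holds 2 genes each named GRF1 and GRF9, and the records chr122 and chr124 point to several genes. Near-identical family members can share reads, so single members are uncertain.

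The test on counts was that of edgeR 4.0.16, run in R 4.3.3 (filterByExpr, TMM, two-sided quasi-likelihood F test, Benjamini-Hochberg threshold 0.05 over 23899 genes) on 14 libraries, in a model of 6 groups and, for UV-B over all zones, an additive model of zone and treatment. SE come from the F statistic, which does not hold edgeR's Poisson bound on p, and intervals are the log2 change with its normal 95% limits. RPKM, as deposited, were used for levels per length only. The floor was 3 reads. Named genes were up to 4 GRFs and 3 subunits with the smallest adjusted p per direction between control zones 1 and 3, any called under UV-B, and the 5 named genes most like each member by Pearson r of log2(CPM + 0.5), among genes with at least 5 CPM in a group. As nearly all RefSeq symbols here are numeric, 2645 genes named by symbol or synonym qualified for that likeness.

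Alternatives were DESeq2 1.42.0 and its size factors, limma-voom (limma 3.58.1), all genes unfiltered or only those with 1 CPM in 3 libraries, the 15th library kept, the compared groups alone, unique reads, a replicate block, a correlation within collections (libraries of 1 treatment with the same title number), leaving out each library or the collections numbered 3 (control) and 9 (UV-B), and other pseudocounts. Reads behind the RPKM, the ratio with GIF1 at the floor or over zones 1 and 2 alone, and the test without the Poisson bound were added after seeing the data. Scripts were tested on simulated data. Nothing says that replicates came from separate plants, though the field experiment was repeated 3 times, so p-values measure the spread between these samples. All replicate pairs differed beyond counting noise (chi-square over degrees of freedom 8.08 to 60.4). Same-numbered control libraries of zones 1 and 3 deviated together from their group means (correlations 0.228 to 0.471 over 3 pairs), so there the replicate numbers of the labels pair the libraries.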

Additional observations from a re-analysis of the deposited data

How the results depend on the processing

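No alternative moved GIF1 or GIF2 past the threshold for UV-B: their lowest adjusted p was 0.344, for GIF2 in zone 2 with 1 library left out, and that of GIF1 in zone 3 and for the interaction, where no fold is given, was 0.554 and 0.759. With unique reads the control change from zone 1 to zone 3 was 0.19 for GIF2 and -6.23 for GIF1. That from zone 2 to zone 3 was 0.037 and -2.85, and that of GIF2 in UV-B plants was -0.26. The UV-B change of GIF1 in zone 1 was -0.24. From control zone 1 to zone 3, 9 GRFs fell, where 5648 of 21459 genes tested fell. In that fit the median log2 change of all genes tested was also lower, at -0.32 for control zone 3 against zone 1. It was -0.21 for control zone 3 against zone 2 and -0.21 for UV-B zone 3 against zone 2. Unique reads are fewer, and the cause was not tested. With the reads behind the RPKM, GIF2 rose by 1.22 between control zones 1 and 3 and by 0.70 between UV-B zones 2 and 3, where leaving out the collections numbered 3 and 9 gave -0.018. The fall of GIF1 and the rise of GIF2 from control zone 1 to zone 3 kept their direction in all alternatives run.

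The ratio of GIF1 to GIF2 under UV-B was -0.010 with GIF1 at its floor (exact permutation p = 0.978), -0.53 over zones 1 and 2 alone (exact permutation p = 0.15), -1.12 with unique reads (exact permutation p = 0.085) and -1.53 without those collections (exact permutation p = 0.0556). As a replicate block, the mean over 5 same-numbered pairs was -0.75 (exact permutation p = 0.0625, the smallest that pairs allow), and single left-out libraries gave -2.0 to -1.41. Between treatments the numbers did not pair the libraries (correlations -0.147 to 0.489 over 4 pairs). Under the replicate block the UV-B change of GIF2 in zone 3 was 0.063, with the correlation within collections 0.037, and that of GIF1 over all zones 0.16 with that correlation. The block changed no UV-B call of GIF1 or GIF2 and gave 45 genes called for UV-B over all zones. Between control zones 1 and 3 it called 14 GRFs lower, as without it. With the block 6753 of 23899 genes tested fell between those zones.

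Leaving out 1 library moved the UV-B change of GIF2 between -0.066 and 0.16 in zone 1, -0.15 and 0.74 in zone 2, -0.24 and 0.16 in zone 3, -0.051 and 0.19 over all zones and -0.80 and 0.093 for the interaction, and that of GIF1 between -0.039 and 0.23 in zone 1, -0.66 and 0.12 in zone 2 and -0.53 and -0.090 over all zones. Between control zones the ranges were -0.16 to 0.74 (GIF2, 2 against 1), -3.62 to -2.84 (GIF1, 2 against 1), 0.17 to 1.06 (GIF2, 3 against 2) and -3.82 to -3.04 (GIF1, 3 against 2). Over all alternatives the genes called were 1 to 66 for UV-B over all zones (DESeq2 gave 66), 0 to 8, 0 to 3 and 0 to 4 in zones 1, 2 and 3, 822 to 5043 and 558 to 6235 for control zone 2 against 1 and 3 against 2, and 0 to 4151 for UV-B zone 3 against 2, beside 7, 1, 0, 1, 1990, 3184 and 1637. Only the compared groups gave no value for UV-B over all zones, and UV-B zone 1 has none without its 1 library. GIF1 had 9 reads in all in zone 3, so no fold between treatments is given there.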

Other observations

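The 7 genes called for UV-B over all zones were looked at by position after their values were seen. On the chromosome of GIF1 lay 5 of them, 4 at 8.80 to 19.9 Mb before GIF1 and GRMZM5G877929 at 1.18 Mb after it, with a log2 change of 2.16 (edgeR adjusted p = 0.00502). GIF1, between them, had a log2 change of -0.26 in the same fit. GIF2 lies on chromosome 4, where none was called. The share of all tested genes on each chromosome is not given here, so these counts by position cannot be judged. The calls also depend on the model, with 4 genes by limma-voom and 1 with the correlation within collections.

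Among the GRFs the largest positive and negative UV-B changes over all zones were those of GRF8 and GRF12. GRF8 stood at 68.2 CPM in the UV-B zone 1 library against 37.4 to 44.0 CPM in the controls, with a log2 change over all zones of 0.43 ± 0.20 (SE; edgeR adjusted p = 0.570). GRF12 had a log2 change of -0.42 ± 0.18 (adjusted p = 0.563). Neither passed the test.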
